A study of Mus musculus with 7 samples.

Results

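The nuclear genes of the mitochondrial respiratory chain and ATP synthase were examined for peaks of β-catenin and Pygo2 in the branchial arches of wild-type mouse embryos at 10.5 days post coitum. They were taken by symbol from the RefSeq gene table of GRCm38.p6 (mm10) as every nuclear protein-coding gene starting with Nduf, Sdha to Sdhd, Uqcr, Cox4 to Cox8 or Atp5. This gave 100 of 21883 genes, of which 49 were assigned to complex I, 8 to complex II, 8 to complex III, 18 to complex IV and 17 to complex V, and 12 of the 100 were assembly factors rather than subunits. The rule uses symbols and no measured value.

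ChIP-seq was made on chromatin of about 200 pooled arches, whole and not sorted by cell type, after cross-linking with EGS at 1.5 mM and then with 1% formaldehyde. The 7 libraries are input from BA1 and BA2, IgG from BA1, β-catenin from BA1 and BA2, and Pygo2 from BA1 and BA2. The labels give no strain and leave the meaning of BA1 and BA2 unstated. Analysed were the lists of peaks from β-catenin BA2 (13672937 tags, 1079 peaks) and Pygo2 BA2 (15009636 tags, 7150 peaks), both called against IgG BA1 per the file headers. With 1 library per protein there was no replicate error and no test was made. Intervals are 95% Wilson intervals that cover counting error only, and the calling minimum was 11 tags for a β-catenin peak and 10 for a Pygo2 peak. Because peak lists hold no expression, the tissue could be looked at only through peaks: Pygo2 lay within 50 kb of 8 of 12 arch and neural crest marker genes (interval 39.1 to 86.2%, against 45.8% of all genes) and of 0 of 5 hepatocyte genes. Alx4, Dlx5 and Prrx1 had it inside 1 kb (3 of 12, interval 8.89 to 53.2%, against 16.5%), and Dlx5 and Dlx6 counted the same peak. The shares of the arch and neural crest markers thus did not stand apart from those of all genes. For the 5 hepatocyte genes the interval within 50 kb was 0 to 43.4%, just under the 45.8% of all genes.

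The respiratory chain passes electrons from NADH (complex I) and succinate (complex II) through ubiquinone to complex III, cytochrome c and complex IV, and the proton gradient that is built drives ATP synthase (complex V). Most of its subunits are encoded in the nucleus and imported. Their promoters are known to be bound by general activators of housekeeping and mitochondrial genes, such as NRF1, the ETS factor GABP, YY1 and SP1. β-catenin is the effector of canonical Wnt signalling that TCF/LEF factors bring to DNA, and the PHD-finger protein Pygo2 joins it through Bcl9.

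To show the DNA that the Pygo2 peaks covered at these genes, the bases upstream of the RefSeq start that lay under a peak and outside every annotated gene are printed 5′ to 3′ for 8 members. Ndufc1 comes before the others because peaks of both proteins overlapped there, and the rest are early-listed members, at most 2 for a complex. Capitals mark any match to the motifs searched.
Ndufc1 (chr3:51408956-51408995, minus strand): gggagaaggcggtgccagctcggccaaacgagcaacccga
Ndufaf3 (chr9:108567437-108567466, minus strand): gaagccaatccatgctcggccacgcctctc
Sdhb (chr4:140961194-140961270, plus strand): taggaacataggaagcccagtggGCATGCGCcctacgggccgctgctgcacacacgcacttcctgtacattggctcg
Sdhaf3 (chr6:6955886-6955970, plus strand): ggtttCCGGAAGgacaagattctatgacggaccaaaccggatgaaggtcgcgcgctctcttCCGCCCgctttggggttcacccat
Uqcrh (chr4:116075126-116075268, minus strand): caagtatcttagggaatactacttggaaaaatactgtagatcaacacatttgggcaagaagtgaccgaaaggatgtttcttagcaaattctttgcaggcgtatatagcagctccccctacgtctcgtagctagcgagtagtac
Cox5b (chr1:36691259-36691425, plus strand): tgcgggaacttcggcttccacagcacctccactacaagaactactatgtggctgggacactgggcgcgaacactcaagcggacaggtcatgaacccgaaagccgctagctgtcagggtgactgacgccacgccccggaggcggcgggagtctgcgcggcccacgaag
Atp5pb (chr3:105959334-105959497, minus strand): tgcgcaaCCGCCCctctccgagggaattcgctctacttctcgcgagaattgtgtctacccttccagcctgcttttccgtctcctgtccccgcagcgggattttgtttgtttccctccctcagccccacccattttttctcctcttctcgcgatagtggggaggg
Atp5g2 (chr15:102671122-102671288, minus strand): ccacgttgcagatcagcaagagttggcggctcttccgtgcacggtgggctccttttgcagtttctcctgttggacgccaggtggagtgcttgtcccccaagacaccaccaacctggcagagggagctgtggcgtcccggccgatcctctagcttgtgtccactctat

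Of these stretches, Sdhb held the NRF1 letters, Sdhaf3 the ETS and SP1 letters and Atp5pb the SP1 letters, and the other 5 held no match. Ndufc1 and Ndufaf3 show only the 40 and 30 bases before the start because the rest of their peaks lay inside the gene.

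Pygo2 peaks sat at the ends of many of the 100 genes, whereas β-catenin peaks were about as frequent near them as near genes at large. Within 1 kb of a gene end, measured from the peak centre, a Pygo2 peak was listed for 39 members (39.0%, interval 30 to 48.8%), against 16.5% of all nuclear protein-coding genes. Within 50 kb the count was 68 members (interval 58.3 to 76.3%), against 45.8% of all genes. A β-catenin peak lay within 1 kb of 2 members (2.0%, interval 0.55 to 7.0%), against 2.01% of all genes, and within 50 kb of 11 members (interval 6.25 to 18.6%), against 10.9%. When each peak counted only for its nearest gene, 1 member had a β-catenin peak within 50 kb, against 3.68% of all genes. Neither protein had a peak within 50 kb of 30 members, against 52.4% of all genes. These 30 were 18 genes of complex I, 1 of complex II, 3 of complex III, 3 of complex IV and 5 of complex V.

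The Pygo2 excess lay close to the genes. Within 100 bp of an end a Pygo2 peak was listed for 18% of members and 5.8% of all genes, and within 250 bp for 32.0% and 11.0%. From 1 kb to 2 kb only 1 member was added, Atp5g3. The median distance from a gene end to the nearest Pygo2 peak was 9.76 kb for the members and 64.8 kb for all genes, and to the nearest β-catenin peak 429 kb and 645 kb. With all peaks within 1 kb of any gene end left out, 27 members had a Pygo2 peak within 50 kb, against 23.7% of all genes.

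**Figure D1:**
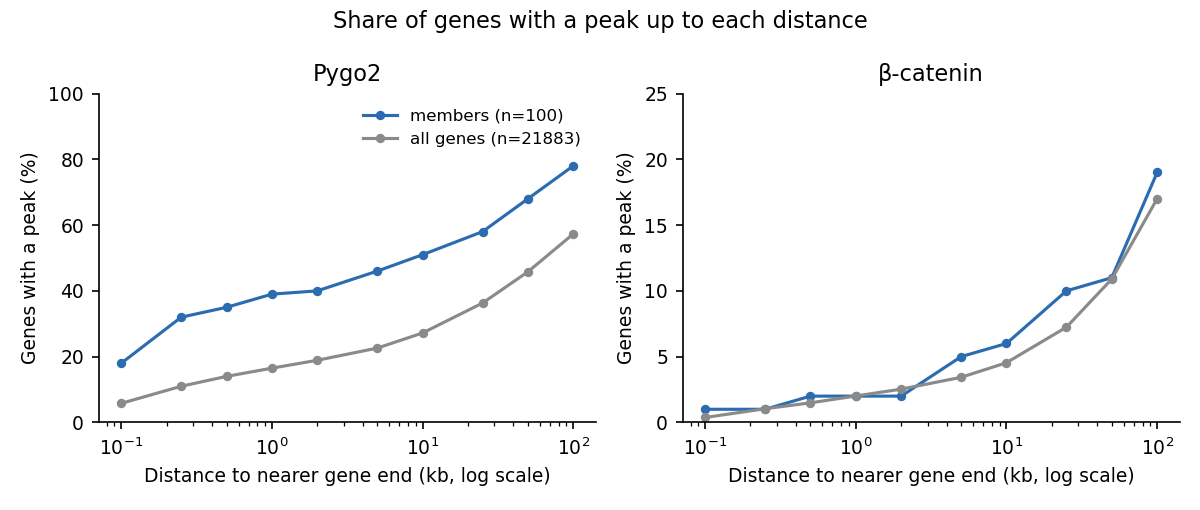
Share of genes with a peak up to each distance from a gene end (log axis, kb), for the 100 members (blue) and all 21883 nuclear protein-coding genes (grey), with Pygo2 on the left and β-catenin on the right; the vertical axes differ. The Pygo2 curve of the members is above that of all genes from the shortest distance, 18% against 5.8% within 0.1 kb, while the β-catenin curves run close together, 11.0% and 10.9% within 50 kb.

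Complex I, which oxidises NADH, had the most genes with a Pygo2 peak at an end, 23 of 49 (46.9%, interval 33.7 to 60.6%). Complexes II and III each had 4 of 8 (50%, interval 21.5 to 78.5%). Complex IV had 5 of 18 (27.8%, interval 12.5 to 50.9%) and complex V 3 of 17 (17.6%, interval 6.19 to 41.0%). All 5 intervals overlapped, and the differences between complexes were not tested. The intervals of complexes IV and V contained the share over all genes, and those of complexes I, II and III lay above it. Within 50 kb the order was different, with complex IV at 77.8%, complex II at 75.0%, complex V at 70.6%, complex I at 63.3% and complex III at 62.5%. Moving Ndufa4, a subunit named for complex I that is found with complex IV, changed the shares to 45.8% of 48 and 31.6% of 19.

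**Figure D2:**
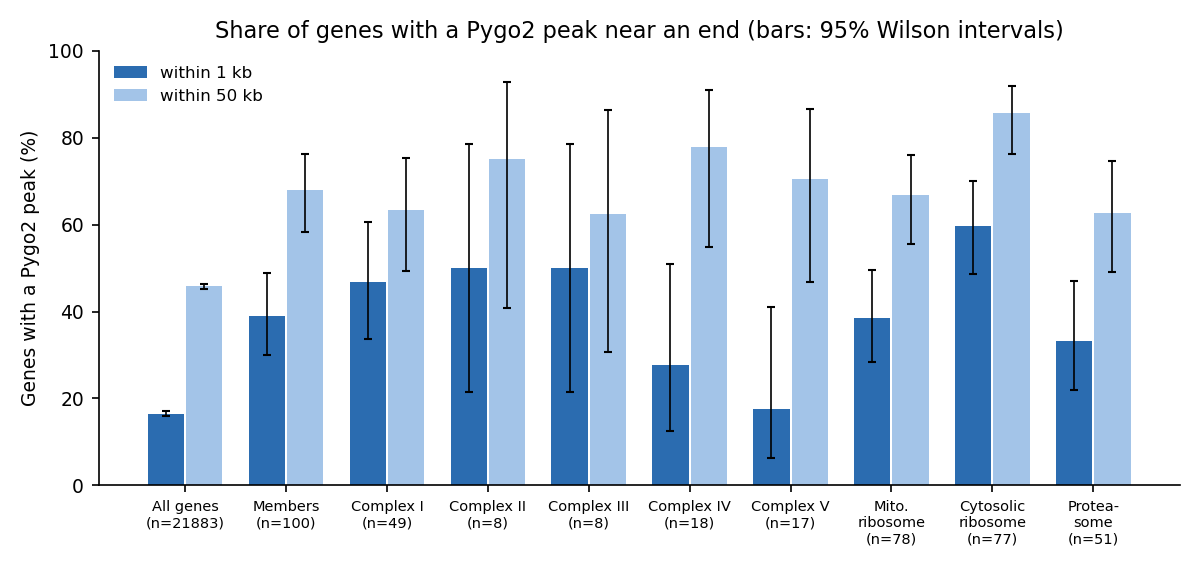
Percentage of genes with a Pygo2 peak within 1 kb (dark bars) and 50 kb (light bars) of an end, for all genes, the 100 members, the 5 complexes and 3 other gene families; error bars are 95% Wilson intervals for counting error. Within 1 kb complexes I, II and III stand at 46.9%, 50% and 50% and complex V at 17.6%, with overlapping intervals.

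Among the catalytic core subunits of complex I, 4 of 7 had a Pygo2 peak within 1 kb. They included Ndufv1, which holds the flavin that accepts electrons from NADH, Ndufs1, which carries iron-sulfur clusters, and Ndufs7, which lies at the ubiquinone site. At Ndufv1 (chr19:4007499-4012755) the peak centre lay 7 bp inside the gene end, and no end of another protein-coding gene was within 1 kb of it. The 3 core genes without one had their nearest Pygo2 peaks between 9.99 kb (Ndufv2) and 149 kb away.

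The assembly factors of complex I, which build the enzyme but do not stay in it, had a Pygo2 peak at 4 of 8 genes, namely Ndufaf1, Ndufaf2, Ndufaf3 and Ndufaf5. The distance at Ndufaf2 was 12 bp, and an end of its neighbour Ercc8, a DNA repair gene, lay 71 bp from the same peak centre. Ndufaf3 (chr9:108565587-108567436) was the only member with 2 Pygo2 peaks within 1 kb, at 53 bp and 421 bp from an end and at positions 538 and 886 of the list. It had 7 Pygo2 peaks within 50 kb. Ndufaf4, Ndufaf6, Ndufaf7 and Ndufaf8 had none within 1 kb.

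The other subunits of complex I, most of them small accessory proteins, had a Pygo2 peak within 1 kb at 15 of 34 genes (44.1%, interval 28.9 to 60.5%), against 16.5% of all genes. This interval overlapped those of the core subunits and the assembly factors. The genes with a peak were Ndufa4, Ndufa4l2, Ndufa7, Ndufa12, Ndufa13, Ndufb1, Ndufb3, Ndufb4, Ndufb6, Ndufb7, Ndufb10, Ndufc1, Ndufs4, Ndufs6 and Ndufv3. Ndufa4l2, the hypoxia-induced relative of Ndufa4, had its peak 80 bp inside the gene. Ndufb6 was the member nearest to the 1 kb limit on the inner side, at 956 bp, and its peak lay 56 bp from another gene, Smim27. The 2 short Ndufb4 copies in the table, Ndufb4b and Ndufb4c (0.471 kb and 0.485 kb long), had no Pygo2 peak within 50 kb, whereas Ndufb4 itself had one at 49 bp.

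In complex II, which also belongs to the citrate cycle, the peaks were at Sdhb, the iron-sulfur subunit, Sdhd, a membrane anchor, and the assembly factors Sdhaf3 and Sdhaf4. Sdhaf3 and Sdhb had the nearest peaks, at 2 bp and 6 bp. No end of another protein-coding gene lay within 1 kb of either peak. Sdha, the flavoprotein, and Sdhc, the other anchor, had their nearest Pygo2 peaks at 112 kb and 54.6 kb.

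Complex III passes electrons from ubiquinol to cytochrome c. Its peaks were at Uqcrc1, a core protein, Uqcrh, the hinge protein, and the small subunits Uqcr10 and Uqcrq, with the nearest at 71 bp (Uqcrc1) and 139 bp (Uqcrh). Uqcrfs1, the Rieske iron-sulfur protein, had none within 50 kb, with the nearest at 458 kb, and the small subunit Uqcrb had its nearest at 1680 kb.

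In complex IV, cytochrome c oxidase, Pygo2 peaks lay at some genes of the widely expressed subunits and at none of the tissue-restricted isoforms with Cox symbols. Of the 11 former, 5 had a peak within 1 kb (45.5%, interval 21.3 to 72.0%), namely Cox4i1, Cox5b, Cox6a1, Cox7a2l and Cox7c, with the nearest at 40 bp (Cox7c) and 145 bp (Cox5b). Of the 7 latter it was 0, with an interval of 0 to 35.4%, which contains the 16.5% of all genes. The intervals of the 2 sets overlapped, and the difference between them was not tested. The lung isoform Cox4i2 had its nearest Pygo2 peak at 17.5 kb. The muscle and heart isoforms Cox6a2, Cox7a1 and Cox8b had theirs at 31.1 kb, 47.0 kb and 39.4 kb. For the testis isoforms Cox6b2, Cox7b2 and Cox8c the distances were 12.0 kb, 429 kb and 430 kb. Ndufa4l2, also taken as tissue-restricted but assigned to complex I by its symbol, did have a Pygo2 peak within 1 kb, at 80 bp.

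The c ring of ATP synthase, which turns with the proton flow, is encoded by 3 genes for 1 mature protein. Pygo2 peaks lay inside the 1 kb window for 2 of the 3 (interval 20.8 to 93.9%), against 16.5% of all genes. These were Atp5g2 (chr15:102662868-102671047), with the peak at 158 bp, and Atp5g1, with it at 340 bp. Atp5g3 had its nearest Pygo2 peak at 1308 bp, which made it the member nearest to the 1 kb limit on the outer side. Atp5pb, subunit b of the peripheral stalk, had the nearest peak of complex V, at 154 bp. None of the 5 F1 genes, which form the catalytic head and its stalk, had a Pygo2 peak inside the 1 kb window of a gene end. The interval was 0 to 43.4%, which contains the 16.5% of all genes. Atp5d did have one 13 bp from a RefSeq start, at position 52 of the list, because its annotated ends lie away from that start. Measured from a gene end, the nearest peaks were at 2.86 kb for Atp5b, 2.94 kb for Atp5d, 6.03 kb for Atp5a1, 156 kb for Atp5e and 1420 kb for Atp5c1.

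**Figure D3:**
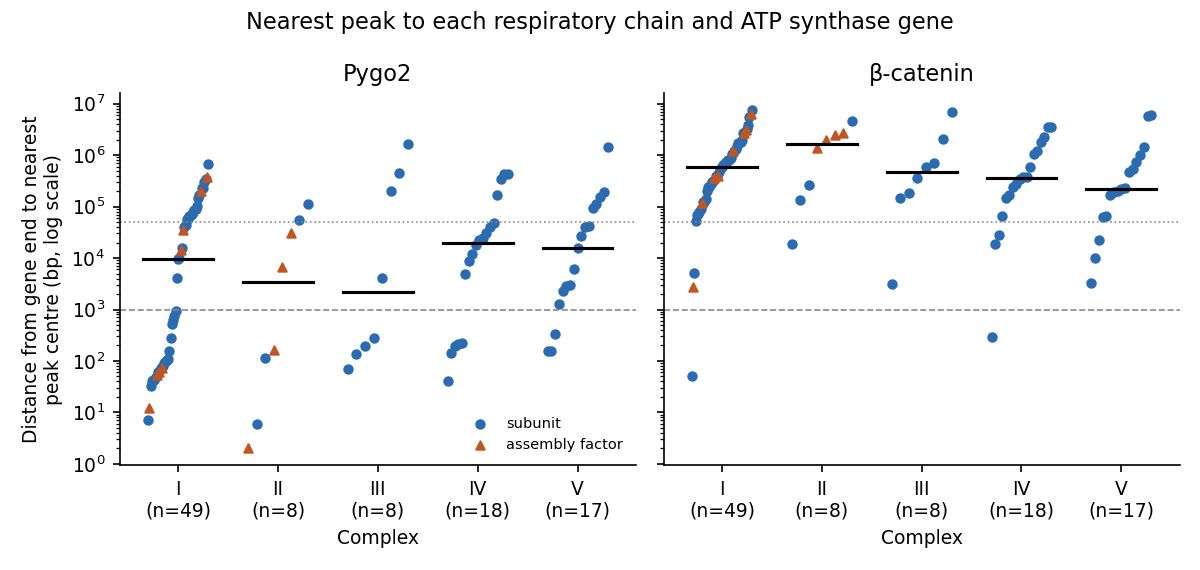
Distance from a gene end to the nearest peak centre (bp, log axis) for each of the 100 members, sorted within its complex, for Pygo2 (left) and β-catenin (right); circles are subunits, triangles assembly factors, thick lines medians, and the dashed and dotted lines mark 1 kb and 50 kb. Pygo2 distances run from 2 bp (Sdhaf3) to 1680 kb (Uqcrb), and only 2 members, in complexes I and IV, fall under the dashed line for β-catenin.

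A gene table without strand does not tell a start from a 3′ end, so the RefSeq promoter table was used for the 82 members it holds. Of these, 34 had a Pygo2 peak within 1 kb of a start (41.5%, interval 31.4 to 52.3%), against 17.3% of all 17491 genes in that table. The shares were 42.9% of 42 genes in complex I, 57.1% of 7 in complex II, 60.0% of 5 in complex III, 30.8% of 13 in complex IV and 33.3% of 15 in complex V. For complex V, 3 of 17 genes by ends became 5 of 15 by starts. Atp5a1 and Atp5mpl had no RefSeq start, and Atp5d and Atp5g3 have annotated ends away from their starts. The peaks of the latter pair lay 13 bp upstream and 170 bp downstream of a start.

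The peaks clustered at the start itself. Among the 34 members the peak centre was upstream of the start in 22 and downstream in 12, with a median of 49 bp upstream, and 32 lay within 300 bp. The extremes were Ndufa7, 624 bp upstream, and Atp5g3, 170 bp downstream. Peaks were within 300 bp of the start for 94.1% of these members and for 77.4% of all genes with a peak within 1 kb of a start. Of the 34 members with both a RefSeq start and a peak within 1 kb of an end, the peak was nearer the 5′ end in 33 and nearer the 3′ end in 1, Ndufb6.

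**Figure D4:**
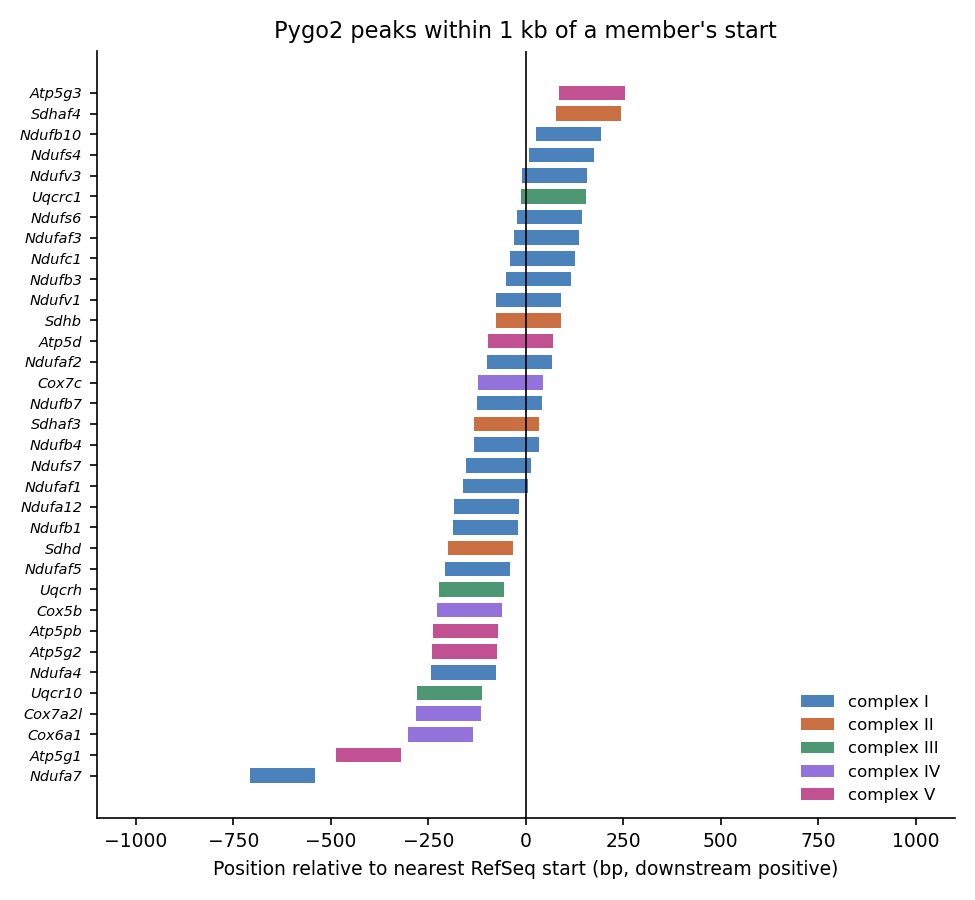
Position of the nearest Pygo2 peak (bars to scale, 167 bp wide) relative to the RefSeq start of each of the 34 members with a peak centre within 1 kb of it, in bp with downstream positive, coloured by complex. Most bars touch or flank the start; Ndufa7 is the farthest upstream at 624 bp and Atp5g3 the farthest downstream at 170 bp.

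Many members have another gene close to an end, and a peak between them cannot be assigned to either. Another protein-coding gene had an end within 1 kb of an end of 55.0% of the members, against 24.8% of all genes. For 19 of the 39 members with a Pygo2 peak at an end, another gene end also lay within 1 kb of the peak, and for 11 of them another gene was nearer. Those 11 were Ndufa4 (Phf14), Ndufa7 (Rps28), Ndufa13 (Tssk6), Ndufaf5 (Esf1), Ndufb1 (Cpsf2), Ndufb6 (Smim27), Sdhd (Timm8b, a mitochondrial import chaperone), Uqcr10 (Zmat5), Uqcrh (Lrrc41), Cox4i1 (Emc8) and Atp5pb (Wdr77). When each peak counted only for its nearest gene, 28 members had a Pygo2 peak within 1 kb, against 14.0% of all genes. With every gene counted, all genes stood at 16.5%. Ndufs6 and the mitochondrial ribosomal gene Mrpl36 lay 60 bp and 81 bp from 1 peak centre, and Ndufs1 and the translation elongation gene Eef1b2 41 bp and 50 bp from another. No 2 members shared a Pygo2 peak within 1 kb, since the 39 members had 40 distinct peaks.

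For peaks within 1 kb, the members' share stayed above that of all genes whether or not a neighbour was close. With a neighbouring end within 1 kb, 23 of 55 members had a Pygo2 peak within 1 kb (41.8%, interval 29.7 to 55.0%), against 30.5% of all such genes, a value inside the interval. Without one, it was 16 of 45 members (35.6%, interval 23.2 to 50.2%), against 11.9%. For peaks within 50 kb, the shares with a neighbouring end within 1 kb were nearly equal, 70.9% of members and 69.1% of all genes. Without such a neighbour they were 64.4% and 38.1%. Base composition was compared as well. The median ratio of observed to expected CpG in the window from 250 bases before to 50 after the start was 0.831 for members and 0.564 for all genes. Over all genes the median was 0.798 with a Pygo2 peak within 1 kb of the start and 0.463 without. Among members the 2 medians differed less, at 0.861 and 0.817. Among windows with a ratio of at least 0.6, 32 of 68 members had a peak within 1 kb of the start (47.1%, interval 35.7 to 58.8%), against 30.2% of all genes, and below 0.6 it was 2 of 14 members (14.3%, interval 4.01 to 39.9%), against 5.86%, a value inside the interval. The 2 were Ndufb7 and Sdhb. Of the tissue-restricted complex IV isoforms, 4 had a RefSeq window, and their ratios were 0.115 for Cox8b, 0.333 for Cox7a1, 0.432 for Cox6b2 and 0.564 for Cox7b2, all under 0.6. The part of neighbours and CpG content in the members' share beyond these splits was not tested.

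**Figure D5:**
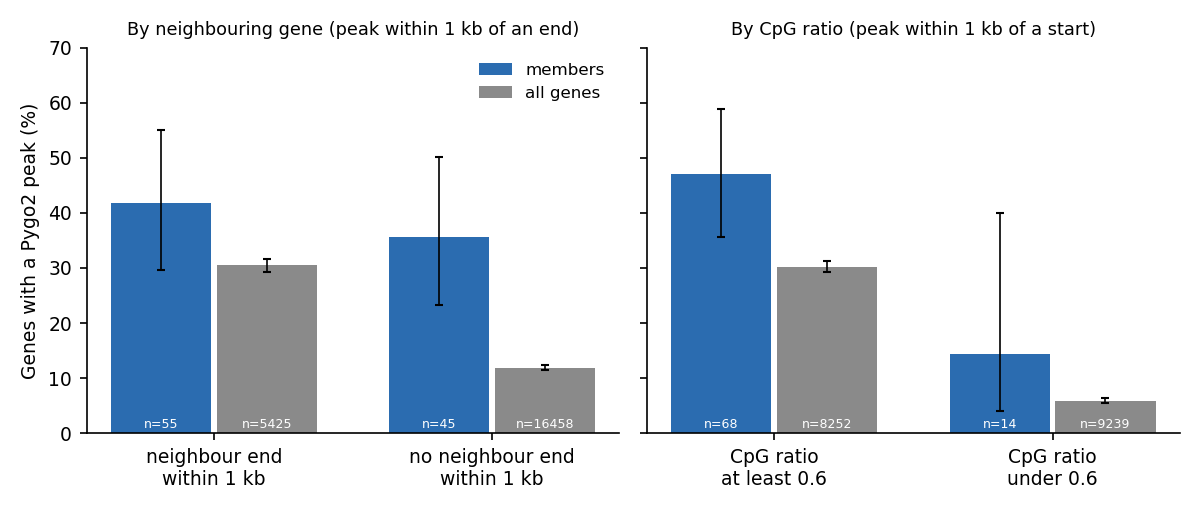
Percentage of genes with a Pygo2 peak for members (blue) and all genes (grey), split by whether another gene end lies within 1 kb (left, peak within 1 kb of an end) and by the CpG ratio of the start window (right, peak within 1 kb of a start); error bars are 95% Wilson intervals and n is the number of genes. Members stand above all genes in each split, for example 35.6% against 11.9% without a close neighbour, but with a close neighbour (30.5%) and below a CpG ratio of 0.6 (5.86%) the share of all genes is inside the members' interval.

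Members' peaks had nearly the same median position in the deposited list as other gene-end peaks. The headers do not state how the list is sorted, so a position is a description and not a strength. The 40 Pygo2 peaks at members ran from position 152 to 6927, with a median at 34.4% of the list, and the 3268 Pygo2 peaks within 1 kb of any gene end had a median at 35.2%. Before the middle of the list stood 75.0% of the former and 66.3% of the latter. The earliest were those of Atp5g2 (152), Atp5g1 (243), Ndufa13 (300) and Ndufs7 (309), and the last was that of Sdhd (6927). When only the 1079 first-listed Pygo2 peaks were kept, as many as β-catenin had, 9 members had one within 1 kb of an end, against 4.19% of all genes.

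Overlapping peaks of both proteins were listed near few members. Within 1 kb this was so for 2 genes, Ndufc1 and Cox4i1 (interval 0.55 to 7.0%), against 0.772% of all genes. Within 50 kb it was so for 4 genes (interval 1.57 to 9.84%), against 3.99%. Each interval contains the share of all genes. Ndufc1, a small membrane-arm subunit of complex I on chr3:51405479-51408955, had the β-catenin peak at chr3:51408819-51408987 and the Pygo2 peak at chr3:51408829-51408995. Their centres lay 52 bp and 43 bp inside the 5′ end. The next protein-coding gene, Naa15, was 7113 bp from the β-catenin peak, so no other protein-coding gene had an end within 1 kb of it. Positions in the lists were 941 of 1079 and 3567 of 7150, so neither was an early peak.

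Cox4i1, the widely expressed isoform of subunit 4 of complex IV, lies on chr8:120668225-120674209. The β-catenin peak (chr8:120667854-120668022) was 287 bp and the Pygo2 peak (chr8:120667928-120668094) 214 bp from its end. Emc8, a subunit of a membrane protein insertion complex, was nearer to both peaks, at 149 bp and 76 bp. The other 2 overlaps lay far from their member. At Atp5d, the δ subunit of F1, the overlap was 22.5 kb away, in a stretch with 11 Pygo2 peaks within 50 kb of the gene, and at Atp5j2, a subunit of the membrane part, it was 43.6 kb away.

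The remaining β-catenin peaks near members mostly stood nearer to another gene, which was so for 10 of the 11 members with one within 50 kb, Ndufc1 being the exception. For the assembly factor Ndufaf3, the member nearest to the 1 kb limit on the outer side, the distance was 2.68 kb, and Wdr6 was nearer. It was 3.17 kb for Uqcr11, a small subunit of complex III with 2 β-catenin peaks within 50 kb, where Mbd3 lay 299 bp from the nearer peak. Atp5h, subunit d of the peripheral stalk, was 3.27 kb away and Mrpl58 250 bp. Ndufa4l2 was 5.2 kb away, and Shmt2, a mitochondrial folate enzyme, 87 bp. The others were Atp5j2 at 10.2 kb (2 peaks), Sdhc at 18.4 kb, Cox7b at 18.5 kb, Atp5d at 22.5 kb (2 peaks) and Cox6a1 at 27.6 kb. Of the 11, 9 also had a Pygo2 peak within 50 kb, and Sdhc and Cox7b did not. Over all 21883 genes, 10013 had a Pygo2 peak within 50 kb, 2375 a β-catenin peak and 11460 neither. Most genes with a β-catenin peak thus also had a Pygo2 peak, and the co-occurrence at members was not tested.

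Motifs of known activators of these genes were searched on both strands in the start windows. GCGCATGC, the core letters of the NRF1 site, was found in 14.6% of the 82 members (interval 8.57 to 23.9%) and 3.93% of all 17491 windows. CCGGAAG of ETS factors was in 26.8% (interval 18.4 to 37.3%) and 12.9%, and AAGATGGCG of YY1 in 9.76% (interval 5.03 to 18.1%) and 2.14%. GGGCGG of SP1 was in 47.6% and 49.2%, TGACGTCA, the cAMP response element, in 4.88% and 2.54%, and TATAAA in 11.0% and 14.8%. The TCF/LEF letters were in few windows, CTTTGAA in 2.44% of members and 5.32% of all, and CTTTGAT in 1.22% and 3.74%. None of these strings contains another, and a match is a description of letters only.

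Members with and without a Pygo2 peak at the start held these letters at shares whose intervals overlapped. The NRF1 letters were in 14.7% of the 34 with a peak (Ndufaf5, Sdhb, Uqcrc1, Cox6a1 and Atp5g2) and 14.6% of the 48 without. For the ETS letters the shares were 20.6% and 31.2%, and for YY1 11.8% and 8.33%. Of all genes with a Pygo2 peak at the start, 7.72% held the NRF1 letters, 24.1% the ETS letters and 4.42% the YY1 letters. The YY1 letters were in the windows of Ndufc1, Ndufs4, Ndufs6 and Ndufs7 among those with a peak. The SP1 letters were in 41.2% of the members with a peak (interval 26.4 to 57.8%), whereas they were in 73.4% of all genes with a Pygo2 peak at the start (interval 71.8 to 75.0%). Of the members with a peak, 1 window held a TCF/LEF string, CTTTGAA at Ndufs6.

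Other nuclear genes for mitochondrial and housekeeping complexes gave a frame for these shares. Pygo2 peaks in the 1 kb window were listed for 30 of 78 mitochondrial ribosomal protein genes (38.5%, interval 28.4 to 49.6%) and 17 of 51 proteasome genes (33.3%, interval 22.0 to 47.0%), both of which overlap the interval of the members. For cytosolic ribosomal protein genes it was 46 of 77 (59.7%, interval 48.6 to 70%). A share like the 39.0% of the members was thus also seen in other families of broadly expressed genes.

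Genes that serve the chain without being part of it were taken as 4 lists, of which 19 of 66 genes (28.8%, interval 19.3 to 40.6%) had a Pygo2 peak within 1 kb, against 16.5% of all genes. By list the shares were 40.0% for assembly genes, 33.3% for regulators, 23.5% for the citrate cycle and 14.3% for electron carriers, and the intervals of the last 3 contained the share over all genes. Among 15 regulators there were 5, the coactivator Ppargc1a at 1 bp, the mitochondrial RNA polymerase Polrmt at 40 bp, its cofactor Tfb2m at 75 bp, the helicase Twnk at 709 bp and the nuclear receptor Esrra at 943 bp. The genes of NRF1, GABP, YY1 and SP1 had none. Among 20 assembly genes of complexes III to V there were 8, namely Cox11 (263 bp), Cox15 (172 bp), Cox16 (307 bp), Cox17 (92 bp), Cox19 (913 bp), Cox20 (114 bp, 2 peaks), Surf1 (283 bp) and Uqcc2 (95 bp). Among 14 genes of electron carriers there were 2, cytochrome c (Cycs, 14 bp) and the ubiquinone enzyme Coq2 (809 bp). Among 17 genes of pyruvate oxidation and the citrate cycle there were 4, Fh1 (175 bp), Idh3a (512 bp), Ogdh (80 bp) and Suclg1 (58 bp). β-catenin peaks within 1 kb were listed for Esrra (121 bp) and the complex III assembly gene Ttc19 (210 bp), which is 3.03% of the 66 genes, near the 2.01% of all genes.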

How the data were processed

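Peaks were called by the authors with HOMER in 1 library per list, per the file headers, with tag counts held to an FDR of 0.001, at least 2-fold over IgG BA1 and over the local 10 kb, with Poisson p-values of 1e-04 or less. Bowtie, Bowtie2, HOMER and mm10 appear without versions in the submitters' processing notes. The deposited score is 1 for every peak and was not used, so peaks carry no strength. Every peak is 169 bp (β-catenin) or 167 bp (Pygo2) wide.

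Distances ran from the centre of a peak to whichever gene end was nearer in the RefSeq GRCm38.p6 table, which gives no strand or exons, so exons, introns and UTRs were not told apart. Windows were 1 kb and 50 kb, and peaks overlapped at 1 bp or more. Start sites and sequences came from RefSeq promoter windows, which matched 82 of the 100 members. The 19 pseudogene entries with matching symbols were not counted. Neighbouring genes were likewise nuclear protein-coding genes only. Few tags support a peak (a mean of 14.6 for β-catenin and 15.5 for Pygo2), so an unlisted site may be bound below the calling minimum.

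The members, gene lists and motifs were chosen with earlier results of these data known. By rule, every member with a β-catenin peak within 50 kb, a Pygo2 peak within 1 kb or tissue-restricted expression was named, except 1 that is not reported here by name, with distances for the 2 nearest of each complex; other distances are examples chosen after their values were seen. Computations used Python 3.11.15, NumPy 2.4.6, pandas 2.3.3 and SciPy 1.17.1, with Matplotlib 3.10.9 for plots, and the peak assignment was checked on simulated peaks. Other windows, peak subsets and gene assignments were tried as alternatives. The remaining 5 libraries were not analysed here.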

Additional observations from a re-analysis of the deposited data

How the results depend on the processing

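Of 64 alternatives over 10 results, 50 left the count within 1.5 times, or the share of a complex within its interval, and 14 did not. All 14 were counts of members. The intervals of the complexes are wide because they hold few genes, so a share could change much and still lie within its interval. The 50 therefore cannot show how stable the shares of the complexes are. Members with a Pygo2 peak within 1 kb numbered 9 with the 1079 first-listed peaks (4.19% of all genes). Within 50 kb they numbered 30 when a peak counted only for its nearest gene (22.0% of all genes), 27 without peaks at gene ends (23.7% of all genes) and 24 with the 1079 first-listed peaks. Members with a β-catenin peak within 1 kb numbered 1 by nearest gene (1.68% of all genes), 0 in the earlier-listed part of the list (1.09%) and 1 by RefSeq starts. Within 50 kb they numbered 1 by nearest gene (3.68% of all genes) and 7 without peaks at gene ends (5.39%), and 19 when the window was 100 kb (17.0%). Members with overlapping peaks numbered 7 at 100 kb, 1 by nearest gene, 2 in the earlier-listed part and 1 without peaks at gene ends. Where a count of members stands here without a share of all genes, that share was not computed, so the count alone says nothing particular to the members. Wider windows and shorter lists change these counts by construction, and other causes were not tested. The share of complex V was 33.3% by RefSeq starts and 17.6% by gene ends, within its interval. No paired analysis was possible because each protein has 1 peak list. The low β-catenin counts, on 1079 peaks, limit what can be seen of that protein.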
